A study of Arundo donax with 9 samples.

Results

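The enzymes that write, erase and read DNA methylation and histone marks, and those that make and load small RNAs, were followed in leaves of Arundo donax (giant cane), a polyploid perennial grass grown for biomass. Members were the assembled unigenes (clusters of transcripts taken as genes) whose Swiss-Prot description matched, ignoring case, DNA (cytosine-5)-methyltransferase, Protein ROS1, DEMETER, Histone-lysine N-methyltransferase, Lysine-specific demethylase, Histone acetyltransferase, Histone deacetylase, Endoribonuclease Dicer, Protein argonaute or RNA-dependent RNA polymerase. This choice, which used no expression value, gave 1056 of the 255855 unigenes listed in the 9 libraries, under 113 protein names and in 9 classes. The median length of the members was 1701 bp and 529 of them were listed in all 9 libraries.

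The plants belonged to the G2 clone, a single genotype, grown in pots and irrigated weekly with tap water without NaCl (G2-CK), with 250 mM NaCl (G2-S3, severe salt) or with 420 mM NaCl (G2-S4, extreme salt). These doses are those of the labels, and the paper gives a slightly higher severe dose and a slightly lower extreme dose. There were 3 biological replicates for each treatment, with 1 leaf library each, and fully expanded leaves that were not senescing were harvested after prolonged treatment. The severe dose was compared with the control (G2-S3 vs G2-CK) and so was the extreme dose (G2-S4 vs G2-CK), which makes these comparisons share the control libraries, and the doses were compared with each other (G2-S4 vs G2-S3). They ask how the transcript levels of a single clone change with the dose of salt, and say nothing of other genotypes, organs or times.

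In plants, DNA methyltransferases copy or set methyl groups on cytosine, and DNA glycosylases of the DEMETER and ROS1 family cut methylated cytosine out again. Histone methyltransferases, demethylases, acetyltransferases and deacetylases add or remove groups on the tails of histones, which changes how readily the wrapped DNA is transcribed. Dicer enzymes cut double-stranded RNA into small RNAs, RNA-dependent RNA polymerases supply much of that double-stranded RNA, and argonaute proteins bind the small RNAs and use them to find transcripts to silence or DNA to methylate. The systems meet in RNA-directed DNA methylation, in which small RNAs guide the methyltransferase DRM2 to its targets. The transcripts of these enzymes were measured here, not the methylation, the histone marks or the small RNAs themselves.

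The read totals implied by the deposited counts and FPKM values were 23.01 to 25.69 M per library. These are the reads assigned to unigenes, not the sequencing depth, and the paper gives a higher number of clean reads per sample. Each deposited list ends at 0.3 FPKM (fragments scaled to transcript length and sequencing depth), so that 36.8% of all pairs of unigene and library carry no value; such a value is called unlisted and is low but not known to be 0. Of the members, 781, 788 and 804 were listed in the G2-CK libraries, 773, 769 and 776 in the G2-S3 libraries and 737, 739 and 746 in the G2-S4 libraries. The leaf identity of the libraries was checked on its defining markers: Rubisco small chain, chlorophyll a-b binding proteins and photosystem I summed to 10833 to 12351 CPM (counts scaled to library size) in G2-CK, 8714 to 9491 CPM in G2-S3 and 3731 to 4152 CPM in G2-S4. Markers of dividing cells, such as cyclins and replication proteins, summed to 344 to 352, 346 to 363 and 333 to 358 CPM in G2-CK, G2-S3 and G2-S4, with all 6 marker sets detected in each group. The search for cyclin B also took Calcyclin-binding protein, without which the sum was 296 to 306, 310 to 318 and 292 to 317 CPM. Within the sum, members moved in opposite directions. The search for DNA polymerase alpha took 3 names, an associated DNA helicase among them, and all were higher in G2-S4 vs G2-CK. Together they had 38.4 to 42.5 CPM in G2-S4, against 20.1 to 21.9 CPM in G2-CK. Cyclin A (10.1 to 11.4 CPM in G2-S4, against 13.5 to 14.3 CPM) and KIN-5 kinesins (93.9 to 97.4 CPM, against 112 to 127 CPM) had 1 name lower each. The cyclin B search also had 1 name lower and 0 higher, and the replication proteins PCNA and MCM had 0 names called. The knotted-1-like homeobox genes of meristems had 352 to 361, 381 to 410 and 331 to 343 CPM in the same order, and the senescence markers summed to 2941 to 3688, 1551 to 1899 and 1249 to 1798 CPM. That sum mixes directions in G2-S4 vs G2-CK: the protease SAG39 was lower (303 to 407 CPM in G2-S4, against 2422 to 3053 CPM in G2-CK), both STAY-GREEN names (393 to 722 CPM, against 120 to 202 CPM) and pheophorbide a oxygenase (316 to 503 CPM, against 245 to 275 CPM) were higher, and chlorophyllase was not called (159 to 166 CPM, against 129 to 158 CPM). The Casparian strip proteins of roots stayed at or below 5.50 CPM. The part of these marker changes in the results below was not tested. In whole leaves, fewer cells of a type and less RNA per cell cannot be told apart.

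The share of these unigenes called changed under salt was below that of all unigenes tested in each comparison, which is a description with no test of the difference. A unigene, or a protein name with the reads of all its unigenes summed, was called changed at an adjusted p under 0.05 (edgeR's quasi-likelihood test over all 9 libraries, Benjamini-Hochberg adjustment over all 127554 unigenes or all 12242 names tested). Of the 733 member unigenes with enough reads to be tested, 5 were higher and 7 lower in G2-S3 vs G2-CK (1.64%), against 5.73% of all unigenes tested (3.4% higher, 2.32% lower). In G2-S4 vs G2-CK, 60 were higher and 71 lower (17.9%), against 28% of all unigenes (14.2% higher, 13.8% lower). In G2-S4 vs G2-S3, 22 were higher and 31 lower (7.23%), against 14.1% (7.23% higher, 6.88% lower). The members tested were longer than the unigenes tested in general (median 2060 bp against 1437 bp) and had a higher median level (1.31 against 0.94 log2 CPM). Of large changes the same held: 8.05% of the members were called with a log2 fold change of at least 1 in size in G2-S4 vs G2-CK, against 17.5% of all unigenes tested. The median log2 fold change was -0.01 over the members and -0.03 over all unigenes in that comparison.

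**Figure D1:**
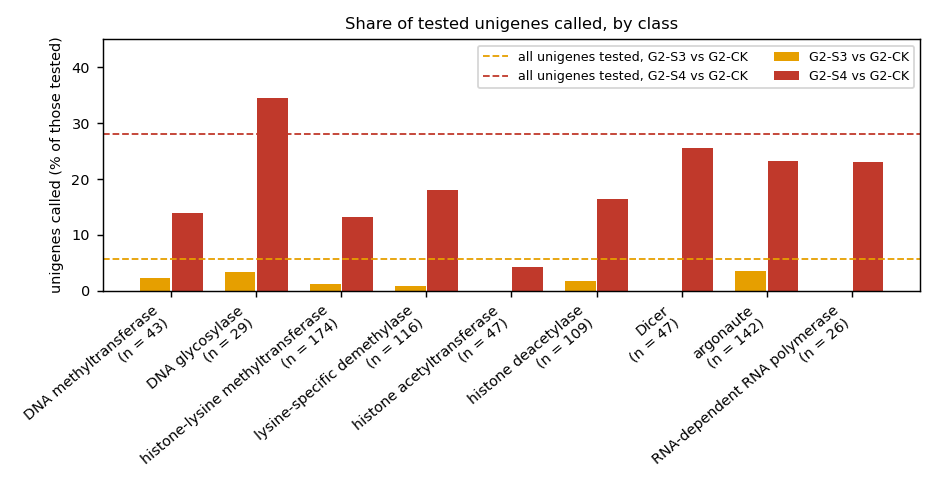
Share of tested unigenes called changed (y axis, percent) in each of the 9 classes (x axis, number tested in brackets) for each salt dose against the controls, with dashed lines for all unigenes tested. In G2-S4 vs G2-CK only the DNA glycosylases (34.5% of 29 unigenes, under 2 tested names) stand above the line at 28%, and the histone acetyltransferases (4.3%) are lowest.

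Summed by protein name, which gathers the fragments and gene copies that share a best hit, 104 of the 113 names could be tested. In G2-S3 vs G2-CK 3 names were higher and 4 lower (6.73%), against 16% of all names (10.5% higher, 5.51% lower). In G2-S4 vs G2-CK 21 were higher and 19 lower (38.5%), against 51.6% of all names (31.6% higher, 20% lower). Between the doses, 10 were higher and 13 lower in G2-S4 vs G2-S3 (22.1%), against 34.6% (20.6% higher, 14% lower). Groups of 3 libraries without overlap were frequent in these data and do not mark a member as such: they occurred in 36.7% of all names tested at the severe dose, in 62.9% at the extreme dose, both against the controls, and in 48.1% between the doses, and in 26%, 44.7% and 32.3% of all unigenes tested. The calls at the lower dose depended on individual libraries: of the 7 names called in G2-S3 vs G2-CK, 0 were called in every analysis that left out 1 library, and with G2-CK 3 left out no member name was called at all. In G2-S4 vs G2-CK, 29 of the 40 called names were called whichever library was left out, and the other 11 were CMT2, DRM2, the methyltransferases ASHR1, ATXR2, SUVH6 and SUVR1, the demethylases JMJ25 and JMJ703, HAC-like 3 and the deacetylases 5 and 19. Counted over the names, 5 members (4.81%) were ordered by dose with no overlap among the 3 groups and higher at each step (Dicer homolog 1, the deacetylase HDT1, the methyltransferase ASHR3, the demethylase rbr-2 and argonaute 1D), against 8.49% of all names. Another 5 (4.81%) were lower at each step (deacetylase 14, the methyltransferases ATXR7 and setd3, argonautes 13 and 2), against 5.07% of all names.

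**Figure D2:**
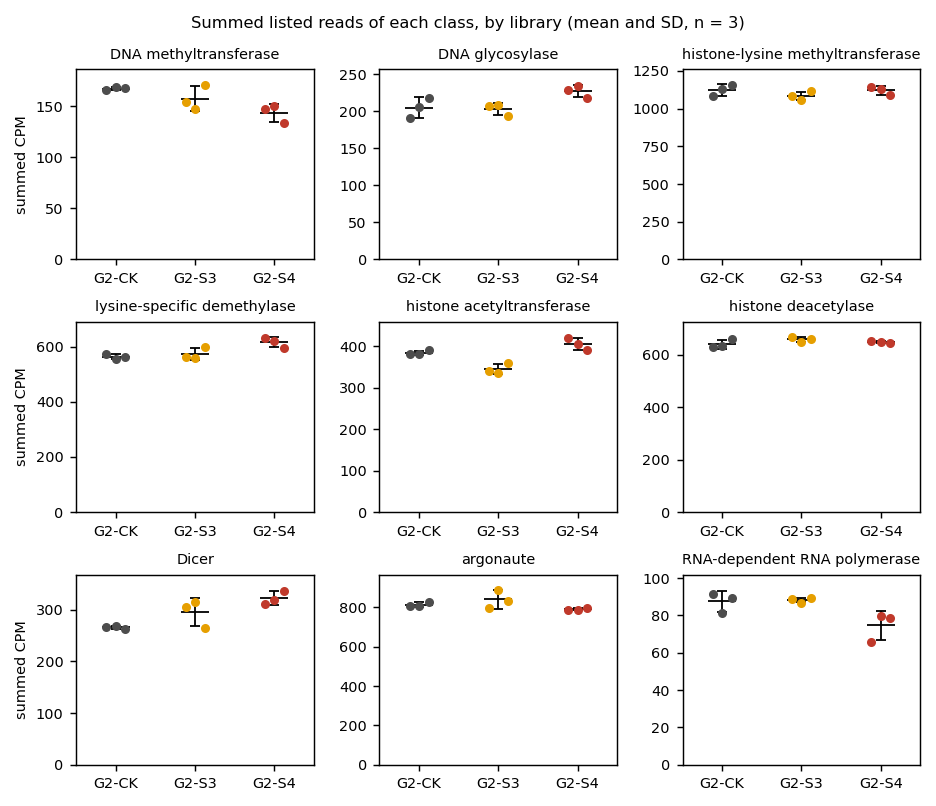
Summed reads of each of the 9 classes in CPM (y axes, from 0) in the 3 libraries of each treatment (points), with mean and SD (bars, n = 3). The Dicer sum averages 266 CPM in G2-CK, 295 CPM in G2-S3 and 323 CPM in G2-S4, while the DNA methyltransferase sum averages 167, 157 and 144 CPM.

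The class sums moved little and are given with no test. The Dicer reads summed to 266 ± 2.7 CPM in G2-CK, 295 ± 26.9 CPM in G2-S3 and 323 ± 12.9 CPM in G2-S4 (SD, n = 3 each). DNA methyltransferases summed to 167 ± 1.3, 157 ± 11.97 and 144 ± 8.8 CPM in the same order. The RNA-dependent RNA polymerases, the least abundant class, had 87.5 ± 5.5, 88.2 ± 1.3 and 74.7 ± 7.7 CPM. The histone-lysine methyltransferases were the most abundant at 1124 ± 38.6, 1084 ± 29.2 and 1121 ± 28.3 CPM, followed by the argonautes at 814 ± 13.6, 840 ± 46.1 and 792 ± 6.4 CPM. Histone deacetylases and lysine-specific demethylases lay between 563 and 659 CPM in every group mean, acetyltransferases between 345 and 405 CPM.

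The DNA methyltransferase names that changed were lower at the extreme dose. Of 43 tested unigenes 1 was higher and 5 were lower in G2-S4 vs G2-CK (14%, against 28% of all unigenes tested), and of 9 names 0 were higher and 4 lower (44.4%, against 51.6% of all names). CMT2, which in Arabidopsis methylates cytosines outside CG sites in heterochromatin, is the most abundant name of the class. It had 59.4, 64.1 and 63.3 CPM in G2-CK, 57, 51.3 and 65.2 CPM in G2-S3 and 55.5, 52.3 and 48.3 CPM in G2-S4. The G2-S4 libraries all lay below the G2-CK libraries, while G2-S3 overlapped both. The fall in G2-S4 vs G2-CK was small (log2 fold change -0.26 ± 0.10 SE, edgeR adjusted p = 0.048), and the call was lost in 11 of 16 alternatives, among them every omission of a G2-CK or a G2-S4 library (adjusted p up to 0.149).

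DRM2, the methyltransferase of the RNA-directed pathway, had 47.4, 47.8 and 46.9 CPM in G2-CK, 38.3, 39.9 and 46.6 CPM in G2-S3 and 41.5, 40.6 and 34.5 CPM in G2-S4. The controls were nearly equal and above all 6 salt libraries, of which G2-S3 3 came close to them. In G2-S4 vs G2-CK it fell by 0.29 ± 0.10 (SE) on the log2 scale (edgeR adjusted p = 0.0339). This call was lost in 8 of 16 alternatives, with each of the G2-CK libraries and with G2-S4 2 or G2-S4 3 left out (adjusted p up to 0.182). The most abundant unigene of the class by FPKM, Cluster-14027.212934 of DRM2 (772 bp), had 27.35, 28.2 and 30.5 FPKM in G2-CK, 22.1, 20.5 and 28.5 FPKM in G2-S3 and 25.9, 25.1 and 19.4 FPKM in G2-S4 and was not called. DRM3, an inactive relative that assists DRM2 in Arabidopsis, was not called and stood at 36.8 to 37.6 CPM in G2-CK and 33.3 to 39.9 CPM in G2-S4. The copying methyltransferase 1A, of the MET1 type that keeps CG methylation through replication, was not called either (0.32 ± 0.13 in G2-S4 vs G2-CK, edgeR adjusted p = 0.0703).

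The other names called lower were methyltransferase 1B and DRM1B, and the call of 1B rests on unlisted values. Of the 5 unigenes named 1B, 2, 2 and 3 were listed in the G2-CK libraries, 3, 3 and 4 in the G2-S3 libraries and 0, 0 and 1 in the G2-S4 libraries. With unlisted values set to the most that 0.3 FPKM allows, the name had 5.95, 4.39 and 4.64 CPM in G2-CK and 4.81, 4.80 and 4.73 CPM in G2-S4, and the call was gone (edgeR adjusted p = 0.759). No fold is therefore given for 1B. DRM1B, below 1 CPM in its mean and outside the rule for named genes, was unlisted in all 3 G2-S4 libraries. With unlisted values at that limit it had 0.279, 0.278 and 0.273 CPM in G2-S4, against 0.654, 1.04 and 0.581 CPM in G2-CK, and it was called lower under every alternative run (adjusted p up to 0.0109).

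The calls of the DNA glycosylases, which undo methylation, went both ways. Of 29 tested unigenes 5 were higher and 5 lower in G2-S4 vs G2-CK (34.5%, against 28% of all unigenes tested). The name DEMETER, first known from the endosperm of Arabidopsis, had 117, 124 and 136 CPM in G2-CK, 135, 136 and 121 CPM in G2-S3 and 158, 162 and 150 CPM in G2-S4. The G2-S4 libraries were above the other 6, and G2-CK and G2-S3 overlapped. DEMETER rose by 0.32 ± 0.08 on the log2 scale in G2-S4 vs G2-CK (1.25-fold, edgeR adjusted p = 0.0096). Among its 18 tested unigenes, 4 were higher and 1 was lower.

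ROS1, the demethylase that acts in vegetative tissue of Arabidopsis, had 73.4, 81 and 81.8 CPM in G2-CK, 72.2, 71.8 and 72.2 CPM in G2-S3 and 70.5, 71.8 and 68 CPM in G2-S4, and the name was not called (-0.17 ± 0.06 in G2-S4 vs G2-CK, edgeR adjusted p = 0.0556). Its unigenes differed from each other: of 11 tested, 1 was higher and 4 were lower. Cluster-14027.180635 (1882 bp) had 11.41, 11.21 and 12.06 FPKM in G2-CK, 12.79, 12.81 and 12.48 FPKM in G2-S3 and 18.07, 17.13 and 15.38 FPKM in G2-S4, and it was called higher in G2-S4 vs G2-CK. The most abundant unigene of the class by FPKM, Cluster-14027.180637 (1056 bp), was not called (0.34 ± 0.14, edgeR adjusted p = 0.0868), at 16.2 to 20.2 FPKM in G2-CK, 16.1 to 17.1 FPKM in G2-S3 and 18.8 to 25.3 FPKM in G2-S4. Cluster-14027.168615 (5279 bp) had 2.64, 2.52 and 2.8 FPKM in G2-CK, 1.6, 1.59 and 2.2 FPKM in G2-S3 and 0.99, 0.66 and 0.45 FPKM in G2-S4. The G2-S4 libraries of this long unigene lay below all others, and it fell by 1.78 ± 0.25 on the log2 scale (edgeR adjusted p = 0.000477). Whether these are gene copies or pieces of the same copy cannot be told from the files.

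**Figure D3:**
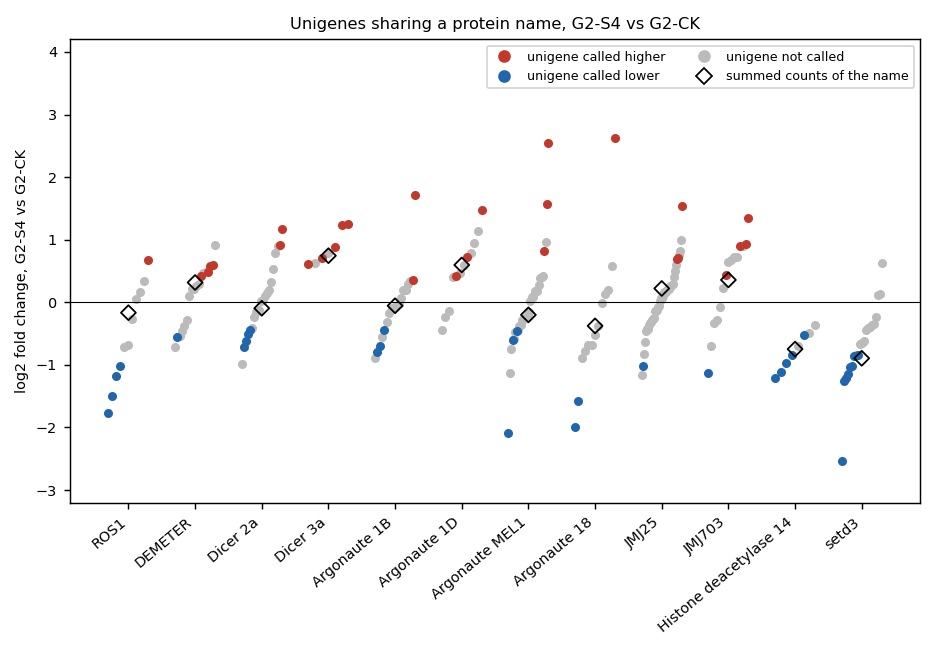
Log2 fold change in G2-S4 vs G2-CK (y axis) of each tested unigene (points) under 12 protein names (x axis), with the change of the summed name as a diamond. ROS1 has 1 unigene called higher and 4 called lower, while the called unigenes of Dicer homolog 3a (5) and argonaute 1D (3) are all higher.

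Some names held unigenes called in opposite directions. Of 31 names with at least 2 called unigenes in G2-S4 vs G2-CK, 12 held unigenes called in both directions: ROS1, DEMETER, Dicer homolog 2a, argonautes 1A, 1B, 18 and MEL1, the deacetylases 19 and HDT2, and the demethylases JMJ25, JMJ703 and JMJ706. Over all names with at least 2 called unigenes, 1478 of 4802 did (30.8%). In G2-S4 vs G2-S3 it was 2 of 12 member names, against 23.9% of all names, and in G2-S3 vs G2-CK 0 of 1. Reads shared by near-identical copies of a polyploid genome may have been split between unigenes by the estimation, and the library kit did not keep the strand, so values of single unigenes are less certain than sums by name.

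Among the Dicer enzymes, homologs 1 and 3a rose and no name fell. Of 47 tested Dicer unigenes 8 were higher and 4 lower in G2-S4 vs G2-CK (25.5%, against 28% of all unigenes tested), and of 6 names 2 were higher and 0 lower (33.3%, against 51.6% of all names). Dicer homolog 1, which cuts microRNAs from their precursors, was carried by 1 unigene (Cluster-14027.160637, 6491 bp), the most abundant of its class in FPKM. It had 51.3, 47.8 and 49.5 CPM in G2-CK, 74.2, 77.8 and 52.8 CPM in G2-S3 and 82.9, 82.5 and 78 CPM in G2-S4. All salt libraries were above the controls, but G2-S3 3 only just. The increase was 1.64-fold in G2-S4 vs G2-CK (log2 fold change 0.71 ± 0.13 SE, edgeR adjusted p = 0.00168). In G2-S3 vs G2-CK it was 1.38-fold (edgeR adjusted p = 0.0414), a call that was lost in 10 of 16 alternatives.

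Dicer homolog 3a, of the type that makes the small interfering RNAs for DNA methylation, had 21, 24.1 and 22.8 CPM in G2-CK, 33.5, 33.9 and 26.9 CPM in G2-S3 and 31.9, 41 and 40.8 CPM in G2-S4. Both salt groups were above the controls and overlapped each other. It rose 1.68-fold in G2-S4 vs G2-CK (log2 fold change 0.74 ± 0.13 SE, edgeR adjusted p = 0.00123), and 5 of its 7 tested unigenes were called higher. The increase in G2-S3 vs G2-CK (0.47 ± 0.13, edgeR adjusted p = 0.0367) was lost with any of the G2-CK libraries, G2-S3 1 or G2-S3 2 left out (adjusted p up to 0.12), and the difference between the doses was not called (edgeR adjusted p = 0.128).

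Dicer homolog 4, the main source of trans-acting small interfering RNAs in Arabidopsis, had the highest reads of the class, 88.4 to 94.8 CPM in G2-CK, 92.6 to 98.8 CPM in G2-S3 and 100 to 104 CPM in G2-S4. It was not called (0.16 ± 0.06 in G2-S4 vs G2-CK, edgeR adjusted p = 0.0551). Dicer homolog 2a was not called as a name (-0.10 ± 0.09, edgeR adjusted p = 0.391), with 2 of 20 tested unigenes higher and 4 lower. Its unigene Cluster-14027.129160 had 5.47, 6.26 and 5.25 FPKM in G2-CK and 10.21, 10.75 and 13.76 FPKM in G2-S4 and was called higher. For the less abundant Dicer homolog 3b, the unigene Cluster-14027.47671 was called higher in G2-S4 vs G2-S3 (log2 fold change 1.10, edgeR adjusted p = 0.0369), at 0.46, 0.61 and 0.92 FPKM in G2-S4, against 0.31, 0.32 and 0.36 FPKM in G2-S3. Those levels are close to the end of the lists, and the call was lost in 9 of 15 alternatives.

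**Figure D4:**
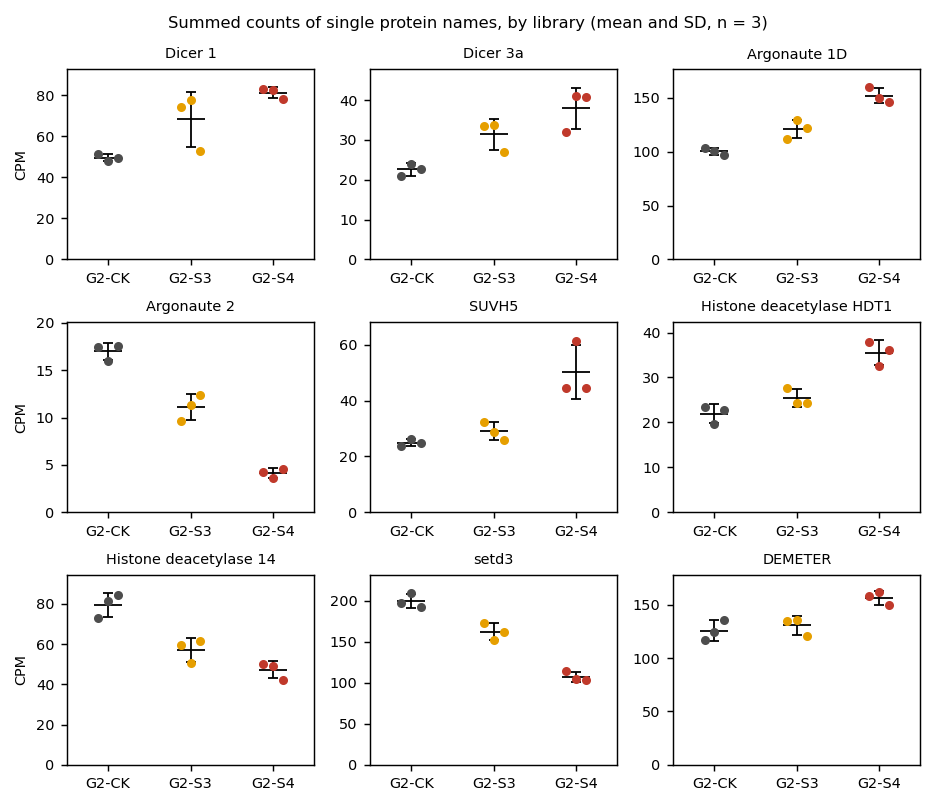
Summed counts of 9 single protein names in CPM (y axes, from 0) in each library of G2-CK, G2-S3 and G2-S4 (points), with mean and SD (bars, n = 3). Argonaute 2 lies at 3.58 to 4.58 CPM in G2-S4, below 15.9 to 17.6 CPM in the controls, and Dicer homolog 1 at 78 to 82.9 CPM in G2-S4, above 47.8 to 51.3 CPM in the controls.

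RNA-dependent RNA polymerases moved in opposite directions, with 2 unigenes higher and 4 lower of 26 tested in G2-S4 vs G2-CK (23.1%, against 28% of all unigenes tested). RNA-dependent RNA polymerase 2, which in Arabidopsis works with RNA polymerase IV to feed the DNA methylation pathway, had 21.9, 22.3 and 25.6 CPM in G2-CK, 25.9, 24.4 and 24.7 CPM in G2-S3 and 30.5, 33.4 and 31.5 CPM in G2-S4. The G2-S4 libraries were above the other 6. It rose 1.37-fold in G2-S4 vs G2-CK (log2 fold change 0.45 ± 0.08 SE, edgeR adjusted p = 0.00184) and was also higher in G2-S4 vs G2-S3 (0.35, edgeR adjusted p = 0.0116). Its unigene Cluster-14027.233550 (3643 bp), the most abundant of the class, had 4.39, 4.15 and 4.59 FPKM in G2-CK, 4.94, 4.53 and 4.64 FPKM in G2-S3 and 5.44, 5.75 and 5.65 FPKM in G2-S4 and was called higher at the extreme dose (0.50 ± 0.10 in G2-S4 vs G2-CK, edgeR adjusted p = 0.0048).

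SHL2, the rice counterpart of RNA-dependent RNA polymerase 6 that makes the precursors of trans-acting small interfering RNAs, went the other way, with 36, 28 and 31.4 CPM in G2-CK, 26.5, 26.4 and 30.1 CPM in G2-S3 and 16.6, 20.6 and 20 CPM in G2-S4. Its G2-S4 libraries lay below all others, and it was 1.67-fold lower in G2-S4 vs G2-CK (log2 fold change -0.74 ± 0.12 SE, edgeR adjusted p = 0.000969). Between the doses it was also lower in G2-S4 (-0.54, edgeR adjusted p = 0.00886). RNA-dependent RNA polymerase 3 had 23.9, 24.1 and 24.5 CPM in G2-CK, 25.6, 23.7 and 24 CPM in G2-S3 and 11.9, 17.8 and 16.8 CPM in G2-S4. Its decrease appeared at the extreme dose (-0.64 ± 0.14 against the controls, edgeR adjusted p = 0.00377, and -0.66 ± 0.14 against the severe dose, edgeR adjusted p = 0.00598). The 3 remaining names of the class, at most at 8.58 CPM, were not called.

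The argonautes held both the largest decrease among the names that average 1 CPM or more, leaving aside methyltransferase 1B, and several increases. Of 142 tested argonaute unigenes 12 were higher and 21 lower in G2-S4 vs G2-CK (23.2%, against 28% of all unigenes tested), and of 15 tested names 2 were higher and 5 lower (46.7%, against 51.6% of all names). In G2-S4 vs G2-S3 1 name was higher and 6 were lower (46.7%), against 34.6% of all names (20.6% higher, 14% lower). By annotation, 128 of the 220 argonaute unigenes carry a Piwi domain, 58 a PAZ domain and 35 both, but the files give no domain for 351 of the 1056 members.

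Argonaute 2, which takes part in defence against viruses in Arabidopsis, stepped down with dose. It had 17.4, 15.9 and 17.6 CPM in G2-CK, 9.63, 11.3 and 12.4 CPM in G2-S3 and 4.29, 3.58 and 4.58 CPM in G2-S4, with no overlap among the 3 groups. It was 4.09-fold lower in G2-S4 vs G2-CK (log2 fold change -2.03 ± 0.14 SE, edgeR adjusted p = 1.15e-05). Between the doses it was 2.67-fold lower in G2-S4 than in G2-S3 (edgeR adjusted p = 0.000162). The 1.53-fold decrease in G2-S3 vs G2-CK (edgeR adjusted p = 0.0152) was lost without G2-CK 3 and without G2-S3 1 (adjusted p up to 0.0607). Both of its unigenes fell in G2-S4 vs G2-CK. Cluster-14027.193008 (3204 bp) had 2.99, 2.79 and 2.97 FPKM in G2-CK, 1.59, 2.05 and 2.3 FPKM in G2-S3 and 0.65, 0.66 and 0.65 FPKM in G2-S4, and Cluster-14027.193010 (3491 bp) fell by the same 2.03 on the log2 scale.

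Argonaute 1D, of the family that loads microRNAs, rose with dose. It had 104, 101 and 97.2 CPM in G2-CK, 112, 129 and 122 CPM in G2-S3 and 160, 149 and 146 CPM in G2-S4, with no overlap among the groups. The increase was 1.51-fold in G2-S4 vs G2-CK (log2 fold change 0.60 ± 0.07 SE, edgeR adjusted p = 0.000201), with 3 of 12 tested unigenes higher and 0 lower. In G2-S4 vs G2-S3 it was 0.33 ± 0.07 on the log2 scale (edgeR adjusted p = 0.00863), and in G2-S3 vs G2-CK 0.27 ± 0.07 (edgeR adjusted p = 0.0394, lost in 8 of 16 alternatives). Its unigene Cluster-14027.174373 was the most abundant argonaute unigene by FPKM, with 47.7, 44.8 and 46.5 in G2-CK, 47.6, 53 and 54.7 in G2-S3 and 60.1, 53.2 and 55.7 in G2-S4. A less abundant unigene of the name changed more: Cluster-14027.129300 had 4.49, 2.89 and 4.21 FPKM in G2-CK, 3.71, 3.45 and 3.79 FPKM in G2-S3 and 11, 9.74 and 8.67 FPKM in G2-S4 (log2 fold change 1.48 ± 0.17 SE in G2-S4 vs G2-CK, edgeR adjusted p = 0.00014).

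PNH1, the rice relative of Arabidopsis PINHEAD, a microRNA-binding argonaute of shoot tips and vascular tissue, had 64.3, 59.2 and 57.9 CPM in G2-CK, 81.5, 95.9 and 64.9 CPM in G2-S3 and 101, 92 and 99.9 CPM in G2-S4. G2-S3 3 again stood near the controls. PNH1 rose 1.61-fold in G2-S4 vs G2-CK (edgeR adjusted p = 0.00181) and missed the threshold in G2-S3 vs G2-CK (0.42, edgeR adjusted p = 0.0544).

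Argonaute 4A, of the type that carries small interfering RNAs to DNA, had 128, 122 and 131 CPM in G2-CK, 117, 123 and 136 CPM in G2-S3 and 94.5, 103 and 102 CPM in G2-S4. It fell at the extreme dose, below all 6 other libraries (-0.35 ± 0.08 in G2-S4 vs G2-CK, edgeR adjusted p = 0.00421), with 4 of 6 tested unigenes lower and 0 higher. Argonaute 4B was not called (-0.29 ± 0.11, edgeR adjusted p = 0.0583). Within the RNA-directed DNA methylation pathway, RNA-dependent RNA polymerase 2 and Dicer homolog 3a were thus called higher in G2-S4 vs G2-CK and argonaute 4A and, less firmly, DRM2 lower.

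Argonaute 12 had 33 to 35.7 CPM in G2-CK, 29 to 34.4 CPM in G2-S3 and 23.1 to 24.3 CPM in G2-S4 and fell by 0.53 ± 0.08 on the log2 scale in G2-S4 vs G2-CK (edgeR adjusted p = 0.00075). Argonaute 13 had 16.2 to 18.8, 13.7 to 15.1 and 8.42 to 12 CPM in the same order and fell by 0.79 ± 0.13 (edgeR adjusted p = 0.00117). Argonaute 1C, with 42.6 to 52, 41.5 to 46.8 and 35.6 to 37.7 CPM, fell by 0.37 ± 0.09 (edgeR adjusted p = 0.00599). For all of these argonautes the G2-S4 libraries did not overlap the controls. In G2-S4 vs G2-S3 argonaute 12 was lower under every alternative, whereas the calls of argonautes 13 (-0.49, edgeR adjusted p = 0.02) and 1C (-0.28, edgeR adjusted p = 0.0325) were lost with G2-S3 1 or G2-S4 1 left out, among other libraries (adjusted p up to 0.102).

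The most abundant argonaute name, 1B, had 155 to 182 CPM in G2-CK, 180 to 224 CPM in G2-S3 and 156 to 171 CPM in G2-S4. It was called lower in G2-S4 vs G2-S3 (-0.29, edgeR adjusted p = 0.0479), which was lost in 11 of 16 alternatives, each omission of a G2-S4 library among them (adjusted p up to 0.135). MEL1, which acts in germ cells of rice, was read at 120 to 126 CPM in G2-S4, against 124 to 152 CPM in G2-CK, and was not called (edgeR adjusted p = 0.0887). Under that name the unigene Cluster-14027.192808 was unlisted in the controls and at 0.42, 1.31 and 0.69 FPKM in G2-S4 (edgeR adjusted p = 0.0119), a call that was lost with unlisted values set to 0.

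Argonaute 18, a branch found in grasses, was uneven among the libraries, at 81.3, 46.9 and 38 CPM in G2-CK, 27.9, 54 and 32.3 CPM in G2-S3 and 44.9, 41.8 and 41.3 CPM in G2-S4, and was not called. A unigene of this name, Cluster-14027.210813 (1999 bp), was lowest at the severe dose, with 6.75, 4.42 and 2.67 FPKM in G2-CK, 0.83, 0.35 and 1.19 FPKM in G2-S3 and 3.79, 5.92 and 4.86 FPKM in G2-S4. The G2-S3 libraries were below the other 6. The log2 fold change was -2.50 ± 0.42 in G2-S3 vs G2-CK (edgeR adjusted p = 0.00892, lost with no filter on low counts) and 2.70 ± 0.43 in G2-S4 vs G2-S3 (edgeR adjusted p = 0.00231). Another, Cluster-14027.100969, had 0.68, 4.25 and 0.39 FPKM in G2-S4 and was listed in 1 of the controls (0.34 FPKM), so that its call in G2-S4 vs G2-CK (2.63, edgeR adjusted p = 0.0228) was lost without G2-S4 2 and without any of the controls.

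Histone-lysine methyltransferases had calls in both directions. Of 174 tested unigenes 9 were higher and 14 lower in G2-S4 vs G2-CK (13.2%, against 28% of all unigenes tested). Of 34 tested names 7 were higher and 5 lower (35.3%, against 51.6% of all names). By annotation, 154 of the 232 unigenes carry a SET domain, the catalytic fold of most of these enzymes. The enzymes for lysine 9 of histone H3, a mark of silent chromatin, had 2 unigenes higher and 1 lower of 43 tested (6.98%). Those for trimethylation of lysine 27, the Polycomb mark, had 4 higher and 0 lower of 15 (26.7%, near the 28% of all unigenes). The ATXR5 and ATXR6 type had 0 called of 5.

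Among the enzymes for silent chromatin, SUVH5, which binds methylated DNA and methylates lysine 9 in Arabidopsis, had 23.6, 26.2 and 24.7 CPM in G2-CK, 32.5, 28.7 and 25.9 CPM in G2-S3 and 44.5, 61.2 and 44.6 CPM in G2-S4. Every G2-S4 library was above the other 6, G2-S4 2 most. SUVH5 rose 2.02-fold in G2-S4 vs G2-CK (log2 fold change 1.01 ± 0.14 SE, edgeR adjusted p = 0.000344) and 1.73-fold in G2-S4 vs G2-S3 (edgeR adjusted p = 0.00266). A single unigene carried this, Cluster-14027.172003 (4998 bp), with 1.96, 2.64 and 2.29 FPKM in G2-CK, 3.27, 2.97 and 2.28 FPKM in G2-S3 and 5.88, 9.35 and 6.24 FPKM in G2-S4. Its neighbour in the clustering, Cluster-14027.172004, was not called, with 2.09, 1.95 and 1.86 FPKM in G2-S4, against 2.28, 2.46 and 2.30 FPKM in G2-CK.

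SUVR4, which in Arabidopsis adds methyl groups to lysine 9 at transposons, fell to 11.7, 13.9 and 11.3 CPM in G2-S4, against 16, 17 and 18.5 CPM in G2-CK (-0.48 ± 0.12, edgeR adjusted p = 0.00901). SUVR1, an inactive relative read at 1.2 to 2.01 CPM in G2-S4 and 0.523 to 0.911 CPM in G2-CK, was called higher (1.16 ± 0.38, edgeR adjusted p = 0.0307), but not without G2-S4 1, G2-S4 2, G2-CK 2 or G2-CK 3 (adjusted p up to 0.109). SUVH3 held the most abundant unigene of the class by FPKM, Cluster-14027.206435, at 27.4 to 35.1 FPKM in G2-CK, 31.1 to 33.9 FPKM in G2-S3 and 28.6 to 31.5 FPKM in G2-S4, and was not called. EZ3, a maize Enhancer of zeste type enzyme of the Polycomb complex, rose to 62.6, 64.8 and 62.2 CPM in G2-S4, against 42.2, 50.1 and 52.2 CPM in G2-CK (0.39 ± 0.09, edgeR adjusted p = 0.00473), with 3 of 11 tested unigenes higher. The related EZ1 and EZ2 were not called.

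The remaining histone-lysine methyltransferases had 3 unigenes higher and 13 lower of 111 tested in G2-S4 vs G2-CK (14.4%, against 28% of all unigenes tested). Of their 19 tested names 3 were higher and 4 lower (36.8%, against 51.6% of all names). TRX1, a rice trithorax type enzyme for lysine 4, had 68.4, 71.8 and 72 CPM in G2-CK, 69.4, 68.6 and 71 CPM in G2-S3 and 96.2, 88.7 and 83.9 CPM in G2-S4. The G2-CK and G2-S3 libraries overlapped and the G2-S4 libraries were above them (0.34 ± 0.07 in G2-S4 vs G2-CK, edgeR adjusted p = 0.00277, and 0.36 ± 0.07 between the doses, edgeR adjusted p = 0.00374). ATXR7, which methylates lysine 4 at a flowering gene of Arabidopsis, fell with dose, to 46.4, 47.6 and 43.4 CPM in G2-S4, against 57.2, 63 and 67.6 CPM in G2-CK (-0.45 ± 0.08, edgeR adjusted p = 0.00138). Its decrease in G2-S3 vs G2-CK (-0.27, edgeR adjusted p = 0.0446) was lost in 9 of 16 alternatives. ASHR3 was read at 13.3, 14.2 and 17.7 CPM in G2-S4, against 8.75, 9.26 and 11.2 CPM in G2-CK (0.63 ± 0.14, edgeR adjusted p = 0.00415), and ATXR4 at 20, 16.8 and 16.4 CPM, against 24.9, 22.9 and 23.3 CPM (-0.42 ± 0.09, edgeR adjusted p = 0.00493). ATXR2 was called higher (0.42 ± 0.16, edgeR adjusted p = 0.0495), a call lost in 11 of 16 alternatives, each omission of a G2-CK library among them. ATXR3, the most abundant name of the class with a plant best hit, was carried by 1 unigene and was not called, at 156 to 174 CPM in G2-S4 and 136 to 157 CPM in G2-CK.

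The largest decrease in this class was that of setd3, the most abundant name, whose best hits are animal proteins. It had 197, 209 and 192 CPM in G2-CK, 173, 153 and 162 CPM in G2-S3 and 114, 105 and 103 CPM in G2-S4, with no overlap among the groups. It was 1.86-fold lower in G2-S4 vs G2-CK (log2 fold change -0.90 ± 0.08 SE, edgeR adjusted p = 2.94e-05), with 8 of 21 tested unigenes lower and 0 higher. In G2-S3 vs G2-CK it was also lower (-0.30 ± 0.07, edgeR adjusted p = 0.0292, lost with any of the G2-CK libraries, G2-S3 1 or G2-S3 2 left out). Its unigene Cluster-14027.149422 had 6.92, 9.28 and 7.09 FPKM in G2-CK, 3.95, 4.19 and 4.41 FPKM in G2-S3 and 0.87, 1.47 and 1.33 FPKM in G2-S4, a fall of 2.53 ± 0.21 on the log2 scale in G2-S4 vs G2-CK (edgeR adjusted p = 2.58e-05). Whether the name stands for a histone enzyme here cannot be told from the annotation. In animals SETD3 methylates actin, and in the Nr protein database 3 of the 24 setd3 unigenes have as best hit the chloroplast methyltransferase of fructose-bisphosphate aldolase.

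**Figure D5:**
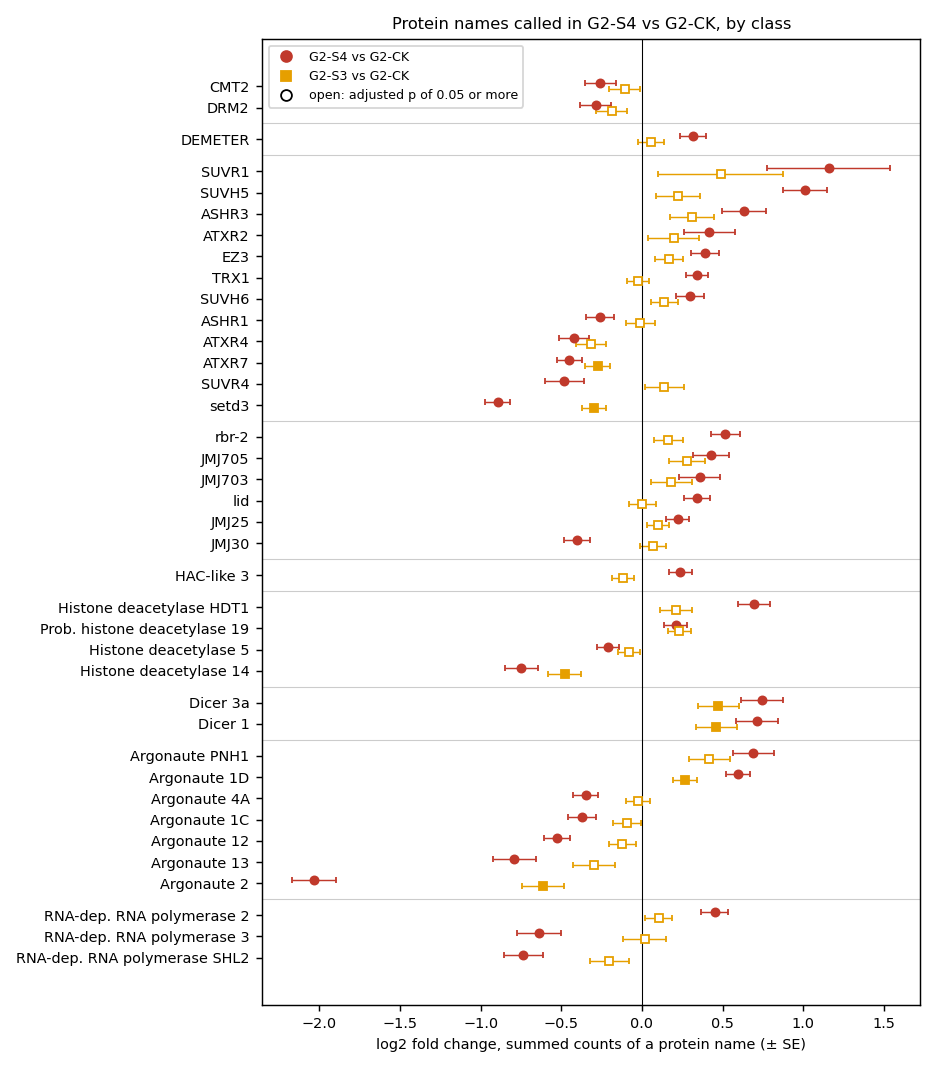
Log2 fold change with SE (x axis) of the protein names called in G2-S4 vs G2-CK that average 1 CPM or more (rows, by class), for the extreme dose (circles) and the severe dose (squares) against the controls, with open symbols where the adjusted p is 0.05 or more. Methyltransferase 1B is not drawn; the values run from -2.03 for argonaute 2 to 1.16 for SUVR1.

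Among the lysine-specific demethylases more names were higher than lower, 5 against 1 of 11 in G2-S4 vs G2-CK, against 31.6% higher and 20% lower over all names. Of 116 tested unigenes 13 were higher and 8 lower (18.1%, against 28% of all unigenes tested). In the annotation, 0 of the 164 unigenes carry a JmjC domain, the domain searched for in this class, so that its names rest on best hits. The names rbr-2 and lid, of worm and fly, belong to the KDM5 type that removes methyl groups from lysine 4 and were reached through animal best hits. The first, rbr-2, had 43.7, 43.9 and 38.1 CPM in G2-CK, 46.4, 45.6 and 48.8 CPM in G2-S3 and 62.6, 63.9 and 53.5 CPM in G2-S4. It was 1.43-fold higher in G2-S4 vs G2-CK (log2 fold change 0.52 ± 0.09 SE, edgeR adjusted p = 0.00134), and all 3 of its tested unigenes were called higher. The other, lid, was read at 59.4, 58 and 53.1 CPM in G2-S4, against 42.6, 44.5 and 47.4 CPM in G2-CK (0.34 ± 0.08, edgeR adjusted p = 0.00686).

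JMJ705, which removes the Polycomb mark in rice, had 12.4, 11.9 and 13.2 CPM in G2-S4, against 10.1, 9.19 and 8.49 CPM in G2-CK (0.43 ± 0.11, edgeR adjusted p = 0.0107). JMJ703, a rice demethylase of lysine 4, rose to 84.7, 78.2 and 75.9 CPM in G2-S4, against 62.3, 59.5 and 64.6 CPM in G2-CK (0.36 ± 0.12, edgeR adjusted p = 0.0378). Its short unigene Cluster-14027.111806 (268 bp), the most abundant of the class by FPKM at 16.9 to 20.3 FPKM in G2-S4 and 7.89 to 16.6 FPKM in G2-CK, had too few reads to be tested. JMJ25, which in Arabidopsis protects genes from lysine 9 and DNA methylation, had 214, 213 and 198 CPM in G2-S4, against 176, 174 and 186 CPM in G2-CK (0.22 ± 0.07, edgeR adjusted p = 0.0259). The increases of JMJ703 and JMJ25 were lost without G2-CK 1, G2-CK 2, G2-S4 1 or G2-S4 2 (adjusted p up to 0.11). The unigene Cluster-14027.188099 of JMJ25 changed more than the name, with 2.84, 1.81 and 1.59 FPKM in G2-CK, 2.38, 3.77 and 2.82 FPKM in G2-S3 and 5.99, 6.33 and 4.19 FPKM in G2-S4 (1.54 ± 0.27 in G2-S4 vs G2-CK, edgeR adjusted p = 0.00175).

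JMJ30, a demethylase tied to the circadian clock of Arabidopsis, was the member of the class that fell. It had 53.3, 47.6 and 51.2 CPM in G2-CK, 54.9, 49.4 and 55.3 CPM in G2-S3 and 39.1, 40.5 and 35.6 CPM in G2-S4. The decrease was confined to the G2-S4 libraries among these 9 (-0.40 ± 0.08 against the controls, edgeR adjusted p = 0.00301, and -0.47 ± 0.08 against the severe dose, edgeR adjusted p = 0.00255), with 4 of 18 tested unigenes lower and 0 higher.

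Histone acetyltransferases had the lowest share of calls among the 9 classes, with 2 unigenes higher and 0 lower of 47 tested in G2-S4 vs G2-CK (4.3%, against 28% of all unigenes tested). HAC-like 3, of the p300/CBP type, had 66, 63.9 and 63.8 CPM in G2-CK, 61.8, 58.8 and 57.9 CPM in G2-S3 and 82, 75.4 and 71.2 CPM in G2-S4. The G2-S3 libraries were lowest and the G2-S4 libraries highest, without overlap. It rose by 0.24 ± 0.07 on the log2 scale in G2-S4 vs G2-CK (edgeR adjusted p = 0.0177, lost without G2-CK 2, G2-CK 3 or G2-S4 1) and by 0.36 ± 0.07 in G2-S4 vs G2-S3 (edgeR adjusted p = 0.00461). HAC-like 1, the most abundant acetyltransferase, had 198, 199 and 203 CPM in G2-CK, 169, 175 and 185 CPM in G2-S3 and 220, 210 and 200 CPM in G2-S4. It was called in G2-S4 vs G2-S3 (0.26 ± 0.07, edgeR adjusted p = 0.016, lost without G2-S3 1 or G2-S4 1) and in neither comparison with the controls. Its unigene Cluster-14027.168527 (5902 bp), the most abundant of the class, had 23.3, 24.4 and 25.4 FPKM in G2-CK, 18.6, 19.2 and 21.2 FPKM in G2-S3 and 24.3, 22.8 and 22.05 FPKM in G2-S4. It was called higher between the doses as well (0.32 ± 0.09 in G2-S4 vs G2-S3, edgeR adjusted p = 0.0453), a call lost in 9 of 15 alternatives. GCN5, the catalytic subunit of a transcription coactivator complex, was not called, at 31.8 to 34.3 CPM in G2-S4 and 32 to 36.4 CPM in G2-CK.

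Histone deacetylases were led by a fall of deacetylase 14 and a rise of HDT1. Of 109 tested unigenes 8 were higher and 10 lower in G2-S4 vs G2-CK (16.5%, against 28% of all unigenes tested), and of 13 tested names 2 were higher and 2 lower (30.8%, against 51.6% of all names). Deacetylase 14, whose Arabidopsis counterpart acts in the chloroplast, had 72.8, 81.2 and 84.2 CPM in G2-CK, 59.3, 50.4 and 61.4 CPM in G2-S3 and 50.3, 49.2 and 42.3 CPM in G2-S4, with no overlap among the groups. It was 1.68-fold lower in G2-S4 vs G2-CK (log2 fold change -0.75 ± 0.10 SE, edgeR adjusted p = 0.000364), with 5 of 8 tested unigenes lower and 0 higher. In G2-S3 vs G2-CK it was 1.39-fold lower (edgeR adjusted p = 0.0163), a call lost without G2-CK 2, G2-CK 3 or G2-S3 2 (adjusted p up to 0.0648).

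HDT1, of the plant-specific HD2 type found in the nucleolus, had 23.4, 19.6 and 22.8 CPM in G2-CK, 27.6, 24.3 and 24.3 CPM in G2-S3 and 37.9, 32.5 and 36.1 CPM in G2-S4. It rose 1.62-fold in G2-S4 vs G2-CK (log2 fold change 0.70 ± 0.10 SE, edgeR adjusted p = 0.000487) and by 0.48 ± 0.10 on the log2 scale in G2-S4 vs G2-S3 (edgeR adjusted p = 0.00612). HDT3, the most abundant deacetylase and of the same type, was not called, at 109 to 120 CPM in G2-S4 and 95.4 to 106 CPM in G2-CK. Its unigene Cluster-14027.170216, the most abundant of the class, was not called either, at 52.6 to 57.2 FPKM in G2-S4 and 52.25 to 53.6 FPKM in G2-CK. Probable deacetylase 19, of the type recruited by many plant corepressors, had 78.4, 83.2 and 75.8 CPM in G2-S4, against 66.4, 71.6 and 67.4 CPM in G2-CK (0.21 ± 0.07, edgeR adjusted p = 0.034), a call lost without G2-CK 1, G2-CK 3, G2-S4 1 or G2-S4 2. Its unigene Cluster-14027.189494 rose at both doses, with 1.46, 1.57 and 1.5 FPKM in G2-CK, 2.81, 2.61 and 2.39 FPKM in G2-S3 and 2.69, 2.61 and 2.71 FPKM in G2-S4 (0.84 ± 0.14 at the severe dose, edgeR adjusted p = 0.00821, and 0.96 ± 0.14 at the extreme dose, edgeR adjusted p = 0.000625). Deacetylase 5 fell slightly, to 76.8, 78.5 and 70.6 CPM in G2-S4, against 83.8, 86.4 and 91.2 CPM in G2-CK (-0.21 ± 0.07, edgeR adjusted p = 0.0284), a call lost without G2-CK 2, G2-CK 3, G2-S4 1 or G2-S4 3 (adjusted p up to 0.0997).

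Under the name deacetylase 5, the unigene Cluster-14027.141514 (2918 bp) changed more, with 1.52, 1.2 and 1.21 FPKM in G2-CK and 0.68, 0.74 and 0.35 FPKM in G2-S3, while in G2-S4 it was listed in G2-S4 2 at 0.57 FPKM and unlisted in the other libraries. It was called lower in G2-S4 vs G2-CK (-1.62 ± 0.35, edgeR adjusted p = 0.00567), a call lost with unlisted values set to 0. The unigene Cluster-14027.107845 (2560 bp) of deacetylase 2 had 2.92, 2.13 and 3.16 FPKM in G2-CK, 3.61, 2.44 and 4.92 FPKM in G2-S3 and 1.53, 1.88 and 0.92 FPKM in G2-S4. Its G2-S4 libraries lay below the other 6, and it was called lower between the doses (-1.25 ± 0.30 in G2-S4 vs G2-S3, edgeR adjusted p = 0.0198), a call lost in 5 of 15 alternatives, with G2-S3 1, G2-S3 3, G2-S4 1 or G2-S4 3 left out among them.

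At the severe dose, 12 member unigenes were called, and they came from several classes. The clearest increase was that of the deacetylase 19 unigene given above. EZ3 was represented by Cluster-14027.97567, with 1.67, 1.37 and 1.73 FPKM in G2-CK, 2.52, 2.32 and 2.19 FPKM in G2-S3 and 2.69, 2.69 and 2.38 FPKM in G2-S4 (0.61 in G2-S3 vs G2-CK, edgeR adjusted p = 0.0473). DEMETER was represented by Cluster-14027.139638, with 3.93, 3.35 and 4.28 FPKM in G2-CK, 5.64, 5.62 and 6.51 FPKM in G2-S3 and 5.92, 4.26 and 4.48 FPKM in G2-S4 (0.67 in G2-S3 vs G2-CK, edgeR adjusted p = 0.0297). Both were named by a rule that required no overlap with the controls at the severe dose, so the lack of overlap adds nothing to the calls. It occurred in 26% of all unigenes tested in this comparison. Both calls were lost with any of the controls left out. Deacetylase 14 fell in Cluster-14027.103185 (4633 bp), with 3.94, 4.38 and 5.35 FPKM in G2-CK, 2.55, 2.21 and 3.04 FPKM in G2-S3 and 2.06, 2.46 and 1.82 FPKM in G2-S4 (-0.76 at the severe dose, edgeR adjusted p = 0.0245, and -0.97 at the extreme dose, edgeR adjusted p = 0.00155). Of the 7 unigenes named in G2-S3 vs G2-CK, 2 were called whichever library was left out, those of deacetylase 19 and argonaute 18 (Cluster-14027.210813).

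The proteins that work with these enzymes, collected in 18 further lists, gave 57 tested names, of which 22 were higher and 2 lower in G2-S4 vs G2-CK (42.1%), against 31.6% higher and 20% lower over all names. In G2-S3 vs G2-CK 5 were higher and 0 lower (8.77%, against 16% of all names), and in G2-S4 vs G2-S3 12 were higher and 2 lower (24.6%, against 34.6%). The supply of the methyl group was among them. S-adenosylmethionine synthases, which make the methyl donor, summed to 260, 171 and 185 CPM in G2-CK, 269, 291 and 250 CPM in G2-S3 and 361, 327 and 415 CPM in G2-S4, and all 3 names were higher in G2-S4 vs G2-CK. Adenosylhomocysteinase, which clears the product that inhibits methyltransferases, had 161, 125 and 143 CPM in G2-CK, 257, 339 and 198 CPM in G2-S3 and 277, 267 and 393 CPM in G2-S4 and was higher at both doses (log2 fold change 0.89, edgeR adjusted p = 0.024, and 1.13, edgeR adjusted p = 0.002). The alternatives were read for members only, so how far the calls of partners depend on single libraries was not examined.

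Several small RNA partners were higher at the extreme dose, but of 7 tested names of double-stranded RNA-binding proteins only 1 was. HEN1, which methylates the ends of small RNAs, had 31.8, 35.8 and 31.5 CPM in G2-S4, against 22.1, 24.4 and 24.1 CPM in G2-CK (0.49, edgeR adjusted p = 0.0013). Serrate, a partner of Dicer homolog 1, had 212, 205 and 183 CPM in G2-S4, against 152, 166 and 166 CPM in G2-CK (0.31, edgeR adjusted p = 0.015), and HASTY, which takes part in microRNA export, 211, 208 and 234 CPM, against 168, 168 and 172 CPM (0.36, edgeR adjusted p = 0.004). SGS3, the partner of RNA-dependent RNA polymerase 6, was called higher at both doses, while SHL2 was lower at the extreme dose. SGS3 had 6.45, 6.53 and 4.51 CPM in G2-CK, 14.1, 13.2 and 8.53 CPM in G2-S3 and 8.53, 10.6 and 16.1 CPM in G2-S4. Its log2 fold change was 1.03 at the severe dose (edgeR adjusted p = 0.037) and 1.01 at the extreme dose (edgeR adjusted p = 0.014). No unigene of SGS3 was called at the severe dose, and neither call was checked with libraries left out. Of the 17 names of RNA polymerase IV and V subunits, 8 of which are shared with RNA polymerase II, 4 were higher and 0 lower in G2-S4 vs G2-CK. Over all names, 31.6% were higher and 20% lower in that comparison.

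Among chromatin partners, LHP1, which binds the Polycomb mark, fell to 61, 60 and 54.1 CPM in G2-S4, against 69.8, 65.8 and 76 CPM in G2-CK (-0.27, edgeR adjusted p = 0.042), and 3 of 4 names of the FACT histone chaperone were higher. Of the methyl-CpG-binding proteins 3 names were higher and 1 was lower of 8, and of the LSD1-type demethylases 2 of 3 were higher. Of the 2 names of MSI histone-binding proteins 1 was higher, the MSI1 homolog (0.28, edgeR adjusted p = 0.0028). Over all names, 51.6% were called in G2-S4 vs G2-CK, 31.6% higher and 20% lower. The remodeller DDM1, DMS3, the 3 Polycomb group names and the chaperone ASF1 were not called in G2-S4 vs G2-CK.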

How the data were processed

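The groups and doses of the 9 libraries were taken from the labels, and 3 biological replicates per treatment were stated, so that p-values measure the spread between these plants of the same clone. The files hold expected counts as deposited, not normalized. To make them the authors filtered read pairs, built transcripts with Trinity without a genome, grouped these with Corset and apportioned the reads with RSEM on bowtie2 alignments. The FPKM values (scaled to length and depth) stand in the same deposited files and end at 0.3 FPKM. Because the assembly has no genome, reads of near-identical gene copies were apportioned by the estimation.

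Expected counts were rounded. Library sizes were the read totals implied by the deposited counts, FPKM values and lengths, fitted for each library. Unlisted values entered the unigene fit as the largest read number that 0.3 FPKM allows (median 2.11 reads, 19.0 at the 95th percentile), which was decided with the lists in view, and filterByExpr with a minimum count of 10 was applied with unlisted values at 0. TMM factors (0.941 to 1.059) and a quasi-likelihood fit over all 9 libraries were computed with edgeR 4.0.16 and limma 3.58.1 in R 4.3.3, with Benjamini-Hochberg adjustment over 127554 unigenes and a threshold of 0.05. Sums by Swiss-Prot name, with unlisted values at 0 and the same library sizes, were adjusted over 12242 names. CPM values are TMM-scaled. Log2 fold changes are given with their SE, and FPKM is used to compare levels between genes. Tables were made with Python 3.11.15, pandas 2.3.3 and numpy 2.4.6, figures with matplotlib 3.10.9, and DESeq2 1.42.0 was run as an alternative.

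The members and lists were chosen with earlier results of these data known. Named are, in each comparison, the called names that average 1 CPM or more, at most 15 per direction by size of change; in each class the most abundant name and unigene; and in each comparison at most 5 called unigenes per direction that average 1 or more in log2 CPM and whose groups do not overlap. Other unigenes and names in the text (of ROS1, Dicer homolog 2a and SUVH5, DRM1B, the summed names of deacetylases 5 and 19, and the names that were not called) were added after their values were seen. Alternatives were RLE factors, no count filter, unlisted values as 0 or at the limit, DESeq2, a fit of the pair alone, a replicate block, green plant best hits only, unigenes of at least 500 bp, and leaving out each library. Of the members, 69 have a best hit outside green plants, and of their 53 tested unigenes 5 were higher and 8 lower in G2-S4 vs G2-CK (24.5%). No sequence is printed because none was used here.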

Additional observations from a re-analysis of the deposited data

How the results depend on the processing

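No called value of a member name or named unigene changed direction under any alternative run. The counts of called members stayed within 1.5 times of the values given above in most alternatives. Exceptions in the other comparisons included the limit on size of change and, for unigenes between the doses, the omission of a library. Most exceptions were in G2-S3 vs G2-CK. There the 12 unigenes became 23 with DESeq2, 6 with unlisted values as 0, 5 with no count filter and 6 with a log2 fold change of at least 1 in size, and the 7 names became 13 with DESeq2, 4 in a fit of the pair alone and 0 with a log2 fold change of at least 1 in size. With the same limit on size, G2-S4 vs G2-CK kept 59 unigenes and 5 names, and G2-S4 vs G2-S3 19 unigenes and 3 names. In both comparisons these names include methyltransferase 1B and DRM1B, and the size of their folds rests on unlisted values set to 0. Leaving out 1 library gave 0 to 12 names at the severe dose, 30 to 44 at the extreme dose and 19 to 26 between the doses, and 4 to 26, 91 to 139 and 26 to 47 unigenes. The lowest name count, 0, came without G2-CK 3 and the highest, 12, without G2-S3 3; in unigenes these were 4 without G2-S3 2 and 26 without G2-S3 3. The cause was not tested.

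The paper states that the pots stood in randomized blocks, but the labels do not say whether a replicate number marks a block. Replicate numbers did not pair the samples: deviations of libraries with the same number correlated at -0.110 to 0.039, and 0 of 9 libraries correlated best with its own number. With the replicate number as a block, 2 names were called at the severe dose, 31 at the extreme dose and 20 between the doses, and 9, 118 and 40 unigenes.

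Class sums depend on the scale. As sums of FPKM, which give short unigenes more weight, the log2 ratio of G2-S4 to G2-CK was -0.34 for DNA methyltransferases, -0.0589 for DNA glycosylases (the opposite sign to the CPM sums, 0.15), -0.15 for histone-lysine methyltransferases, -0.0344 for demethylases (opposite to 0.13), 0.14 for acetyltransferases, -0.0759 for deacetylases (opposite to 0.0216), 0.22 for Dicers and -0.27 for argonautes. That of G2-S3 to G2-CK was -0.21 for DNA methyltransferases, -0.0495 for acetyltransferases and 0.13 for deacetylases, and the signs of the DNA glycosylases, demethylases and RNA-dependent RNA polymerases differed between the scales at values near 0. That of G2-S4 to G2-S3 was -0.0771 for DNA glycosylases (opposite to 0.16), -0.0546 for histone-lysine methyltransferases (opposite to 0.0475), -0.00375 for demethylases (opposite to 0.10), -0.20 for deacetylases and -0.30 for argonautes. Members below 0.3 FPKM cannot be told from absent ones, since the lists end there.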
